A study of Mus musculus with 12 samples.

Results

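The complement genes described here are C1qa, C1ra, C1s1, C3, C4b, Cfb, C6, C7 and Serping1, 9 of the 53465 genes counted in mouse heart RNA and 9 of 58 complement genes listed for this report. They were chosen from the complement genes with earlier results of these counts in view, and which comparison weighed in that choice is not recorded, so their values are given as descriptions and the other 49 listed complement genes carry the tests. RNA sequencing was performed on hearts of 12 male C57BL/6J-background mice in 4 groups of 3, A17fl/fl or A17α-MHCKO mice that had each received NS or DOX. DOX mice had received 4 weekly intraperitoneal injections of 5 mg/kg doxorubicin, an anthracycline with cardiac toxicity, to a cumulative 20 mg/kg, and NS mice had received normal saline. The mice entered the study at 8 weeks of age and were killed 4 weeks after the last injection. Both alleles of Adam17, which encodes the sheddase that releases TNF-α, were floxed in every mouse. The A17α-MHCKO mice also carried Cre under the α-myosin heavy chain promoter, which deletes exon 2 in cardiomyocytes, and the A17fl/fl littermates carried no Cre. Cre itself and the loss of Adam17 therefore cannot be told apart in the genotype comparisons. The labels name the tissue as heart and the study's text names left ventricle, so the RNA came from cardiomyocytes and all other cells of the sample.

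Complement is a cascade of plasma and tissue proteins that marks targets for removal by phagocytes and can open pores in membranes. C1q binds the target and activates the proteases C1r and C1s, which cleave C4 and C2, and the resulting convertase cleaves C3, the protein on which all routes converge. Factor B amplifies C3 cleavage in the alternative pathway, C6 and C7 belong to the membrane attack complex, and the C1 inhibitor encoded by Serping1 restrains C1r and C1s. Most circulating complement is made by the liver, C1q is a product of macrophages, and fibroblasts and other stromal cells of many tissues transcribe C1r, C1s, C3, C4 and the C1 inhibitor. A transcript level in bulk heart RNA does not separate fewer cells of a type from less RNA per cell.

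The libraries held 15950717 to 21725076 counts (median 16413855), and 16101 genes passed the filter on low counts, all 9 members among them. Adam17 was 54.4 ± 14.5, 49.9 ± 2.88, 34.8 ± 0.579 and 32.3 ± 4.45 CPM (counts scaled to library size, mean ± SD, n = 3), the first pair of values in A17fl/fl and the second in A17α-MHCKO hearts and each pair after NS and after DOX, with no overlap between the genotypes. That count covers the whole gene and all cells, not exon 2 of cardiomyocytes alone. One library stood apart from the rest: A17fl/fl + NS replicate 1 lay at -120 on the first principal component (35.2% of the variance), and the other 11 lay between -12.9 and 28.4. In it, 8 of 12 macrophage markers, 8 of 8 neutrophil markers and 11 of 12 acute-phase genes reached their highest level, and 9 of 10 cardiomyocyte markers their lowest. The summed macrophage markers were 1188 CPM there and 329 to 422 CPM in the other 11 libraries, the neutrophil markers 2398 against at most 69.8 CPM, and the cardiomyocyte markers 24165 against 36488 to 56428 CPM. Cd14 alone gave 480 CPM of that macrophage sum, against 11.6 to 16.9 CPM in the other 11. The part of these cells in the results was not tested. For comparisons that include that library, the main fold changes and the counts at an unadjusted p are also given without it. The members' medians and the shares without overlap are given only with it, as are several marker lists. Replicates 1 and 3 of A17fl/fl + NS were nearly without atrial transcripts: Myl7, the atrial myosin light chain, was at 0 and 0.0626 CPM in them and 125 to 1019 CPM in the other 10 hearts, and the summed atrium markers were 1052 and 387 CPM against 1739 to 8442 CPM. Replicate 2 of that group, with an atrium sum of 7352 CPM, held the highest level of 7 of 8 mesothelium markers. Of the hepatocyte markers, Alb, Apoa1, Apoa2, Ttr, Serpina1a and Fgb were under 1 CPM in every library, Trf was 54.8 to 138 CPM and Ahsg 9.33 to 55.1 CPM.

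The CPM values below were scaled by trimmed mean of M-values (TMM) and compare one gene between samples. The deposited FPKM values, in which fragments are divided by transcript length and by depth, compare genes per length. On the FPKM scale the median over the 12 hearts was 111 for C1qa, 76.7 for C3, 70.1 for Serping1, 17.8 for C4b, 12.2 for C1ra, 10.5 for C1s1, 3.88 for C7, 1.95 for Cfb and 0.396 for C6. Transcripts of the recognition subunit, of C3 and of the C1 inhibitor were thus the most abundant members, and those of the terminal genes and factor B the least. Among the listed complement genes only Clu (clusterin, median 108 FPKM) and C1qb (106 FPKM) also exceeded 100 FPKM, and C1qc was at 43.5 FPKM. The heart transcripts did not cover the whole cascade: Hc, which encodes C5, had 0 to 3 counts per library, C8a had 0 to 2, and C8b and C9 had 0 in all 12, which allows up to 3 counts in each. Protein, which can also arrive with the plasma, was not measured here.

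**Figure D1:**
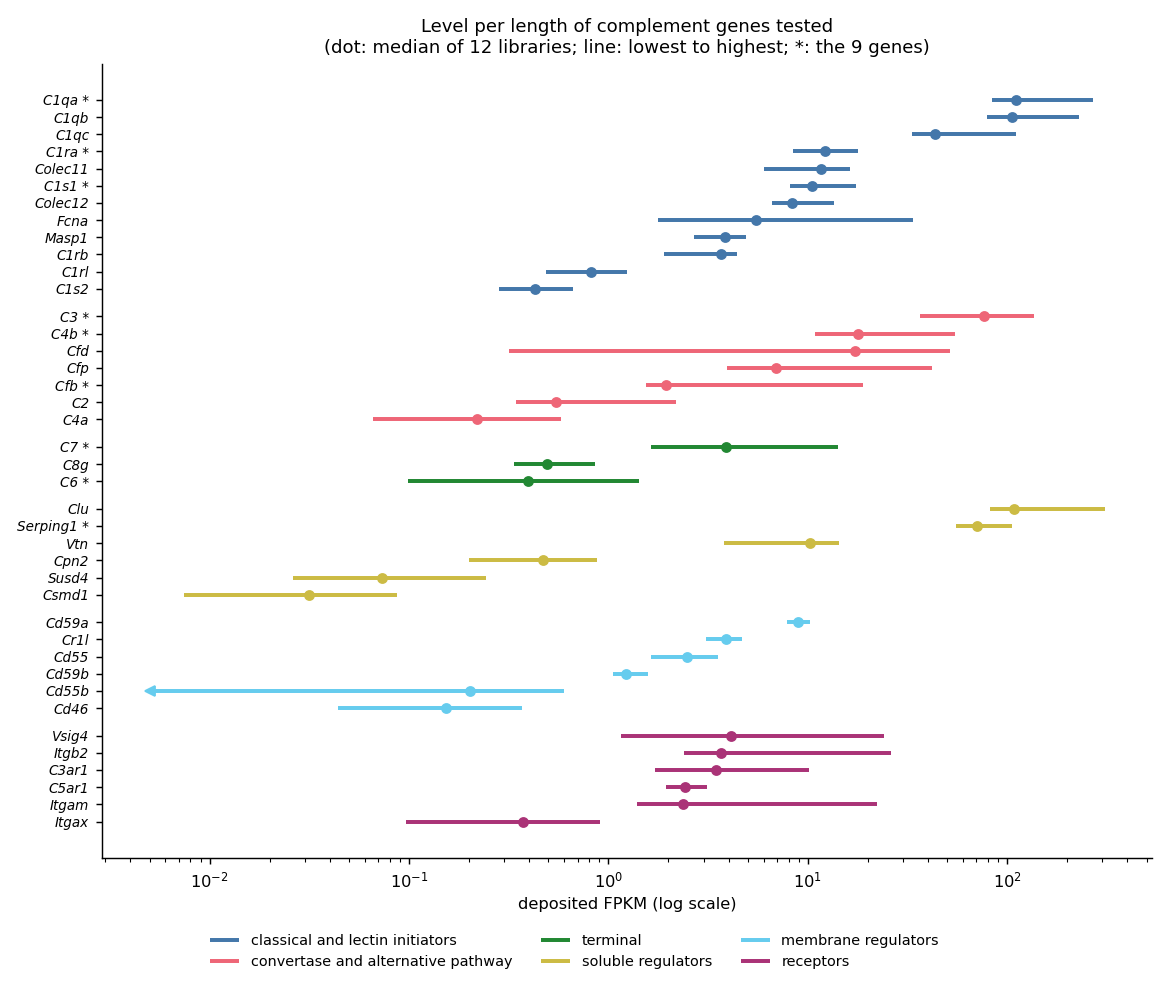
Deposited FPKM (x axis, log scale) of complement genes that passed the filter, grouped by role, with the median of 12 libraries as a dot and the lowest to the highest library as a line. C1qa, Clu and C1qb have medians over 100 FPKM, C6 has 0.396 FPKM, and Cfd spans 0.318 to 51.4 FPKM. The arrow marks a gene with 0 FPKM in at least 1 library.

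In the C1 complex, C1qa (the A chain of C1q) was 266, 104 and 123 CPM in the A17fl/fl + NS hearts (replicates 1, 2 and 3) and 91.4, 155 and 101 CPM in the A17α-MHCKO + NS hearts. After doxorubicin it was 118, 126 and 108 CPM in A17fl/fl and 150, 113 and 134 CPM in A17α-MHCKO. The 4 groups overlapped, and the single high value came from the library with high macrophage markers. C1qb and C1qc, which encode the other chains, were likewise highest in that library (237 and 224 CPM) and were 87.0 to 149 and 74.6 to 118 CPM in the other 11.

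C1ra, the protease that C1q activates first, was 50.2, 38.6 and 40.9 CPM in A17fl/fl + NS and 26.2, 38.0 and 34.9 CPM in A17α-MHCKO + NS. It was 37.0, 36.0 and 31.9 CPM in A17fl/fl + DOX and 28.8, 26.8 and 34.6 CPM in A17α-MHCKO + DOX. All 3 A17fl/fl + NS hearts lay above all 9 others, by a narrow margin (38.6 against 38.0 CPM). C1s1, the protease that cleaves C4 and C2, was 68.0, 61.5 and 97.4 CPM in A17fl/fl + NS and 45, 49.4 and 41 CPM in A17α-MHCKO + NS. It was 63.4, 54.7 and 56.0 CPM in A17fl/fl + DOX and 46.8, 43.2 and 52.1 CPM in A17α-MHCKO + DOX. The 6 A17fl/fl hearts all exceeded the 6 A17α-MHCKO hearts, and NS and DOX overlapped within each genotype.

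Both C1r and C1s have a near copy in mice. The longest annotated transcripts of C1ra and C1rb matched at 97.9% over 2431 bases and those of C1s1 and C1s2 at 95.9% over 2643 bases, so the split of fragments within each pair is uncertain. C1rb was 4.81 to 10.4 CPM and C1s2 0.697 to 1.67 CPM over the 12 hearts, below C1ra and C1s1 in every heart.

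C3 was 733, 647 and 752 CPM in A17fl/fl + NS and 556, 440 and 428 CPM in A17fl/fl + DOX. It was 218, 511 and 244 CPM in A17α-MHCKO + NS and 429, 337 and 351 CPM in A17α-MHCKO + DOX. The A17fl/fl + NS hearts lay above the 9 others without overlap, and the A17α-MHCKO + NS group was the widest, with replicate 2, the deepest library, far above the other 2. C4b, the mouse C4 gene, was 325, 116 and 307 CPM in A17fl/fl + NS and 125, 124 and 106 CPM in A17fl/fl + DOX. It was 71.7, 100 and 104 CPM in A17α-MHCKO + NS and 116, 78.4 and 105 CPM in A17α-MHCKO + DOX. A pair of the A17fl/fl + NS hearts held about the same high level and the remaining one, replicate 2, lay at the level of the A17fl/fl + DOX hearts. C4a, its near copy (95.9% over 5378 bases), was 0.556 to 4.39 CPM, so C4b counts also carry this uncertainty.

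Cfb (factor B) was 85.5, 8.14 and 14.5 CPM in A17fl/fl + NS and 8.27, 7.56 and 9.07 CPM in A17α-MHCKO + NS. It was 8.87, 14.3 and 8.95 CPM in A17fl/fl + DOX and 10.1, 7.73 and 10.7 CPM in A17α-MHCKO + DOX. Without the first of these hearts, which is the library that stood apart, all 11 values lay between 7.56 and 14.5 CPM.

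C6 was the least expressed member, with 5.71, 0.419 and 4.39 CPM (99, 7 and 70 counts) in A17fl/fl + NS and 2.08, 1.23 and 1.43 CPM in A17fl/fl + DOX. It was 1.3, 2.07 and 0.697 CPM in A17α-MHCKO + NS and 2.2, 0.585 and 1.94 CPM in A17α-MHCKO + DOX. A17fl/fl + NS held both the lowest and the 2 highest values, so that no group was separate from another. C7 was 33.6, 26.4 and 41.4 CPM in A17fl/fl + NS and 10.2, 5.60 and 8.95 CPM in A17fl/fl + DOX. It was 11.1, 12 and 11.2 CPM in A17α-MHCKO + NS and 4.53, 9.16 and 7.47 CPM in A17α-MHCKO + DOX. The lowest A17fl/fl + NS heart exceeded the highest of the other 9, the A17α-MHCKO + NS hearts came next without overlap, and the DOX groups overlapped with each other. The 5 listed terminal genes that are not members summed to only 1.07 to 3.13 CPM.

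Serping1 (C1 inhibitor) was 283, 229 and 251 CPM in A17fl/fl + NS and 195, 197 and 175 CPM in A17fl/fl + DOX. It was 163, 232 and 188 CPM in A17α-MHCKO + NS and 197, 163 and 201 CPM in A17α-MHCKO + DOX. Doxorubicin and saline did not overlap in A17fl/fl, and the A17α-MHCKO + NS hearts overlapped with every other group.

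**Figure D2:**
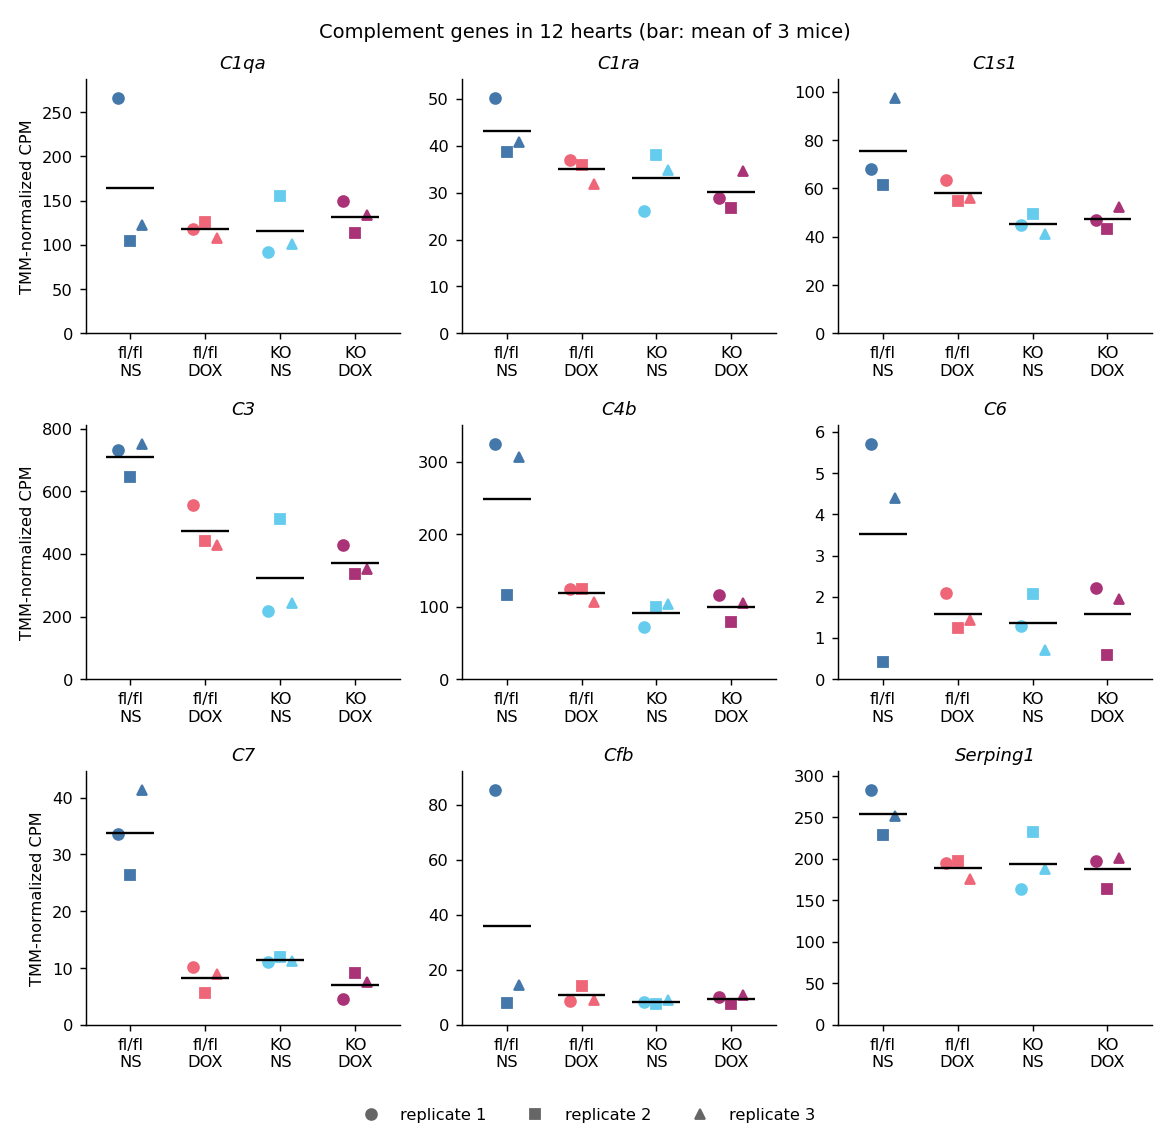
TMM-normalized CPM (y axis, from 0) of the 9 complement genes in each of 12 hearts, by group, with a symbol per replicate and a bar at the mean of 3 mice. C7, C3 and C1ra are highest in all 3 A17fl/fl + NS hearts, whereas the high mean of Cfb comes from replicate 1 alone, at 85.5 CPM.

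The order of the group means was led by A17fl/fl + NS for all 9 members. The order below it varied: A17fl/fl + DOX came next for C1ra, C1s1, C3, C4b and Cfb and, level with A17α-MHCKO + DOX (both 1.58 CPM), for C6, A17α-MHCKO + NS for C7 and Serping1, and A17α-MHCKO + DOX for C1qa. Neighbours in this order were separate, without overlap, only between the first and second place for C1ra, C3 and C7, and between the second and the next place for C1s1 and C7. The lead of A17fl/fl + NS for C1qa rested on replicate 1. Without that heart the log2 fold change of C1qa from A17fl/fl + NS was 0.05 to A17fl/fl + DOX and 0.03 to A17α-MHCKO + NS. The sum of the 9 members was 1850, 1230 and 1631 CPM in A17fl/fl + NS, 1117, 999 and 925 CPM in A17fl/fl + DOX, 636, 1108 and 734 CPM in A17α-MHCKO + NS and 984, 779 and 898 CPM in A17α-MHCKO + DOX. C3 made up the largest share of that sum in each heart.

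Positions are those of GENCODE M21 on GRCm38, an earlier build than the GRCm39 named in the submitters' notes. Serping1 is at chr2:84765387-84775444 and C1qa at chr4:136895917-136898803, beside C1qb and C1qc. C1ra (chr6:124512405-124523443) and C1s1 (chr6:124530345-124542359) lie close together on opposite strands. C6 (chr15:4727175-4814967) and C7 (chr15:4988762-5063740) lie on one chromosome, also on opposite strands. C4b (chr17:34728380-34743882) and Cfb (chr17:34856374-34862518) lie in the major histocompatibility complex, and C3 is on the same chromosome at chr17:57203970-57228136. Neighbouring genes differed in some features: C7 was separate between groups and C6 was not, and C4b was high in 2 of the A17fl/fl + NS hearts and Cfb in 1. Over the 12 hearts, Pearson's r of log2 CPM was 0.792 for C4b and Cfb, 0.677 for C1ra and C1s1 and 0.311 for C6 and C7.

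RefSeq (GRCm38.p6) gave the promoter, 250 bases before to 50 after the start, for 5 of the 9 members. Those of C1ra, C1s1, C3 and C7 are shown because these members did not overlap between A17fl/fl + NS and A17α-MHCKO + NS. C4b, the other such member, had no entry. Capitals mark matches on either strand to TTCNNNGAA (GAS, the element bound by STAT dimers), GAAANNGAA (the core of the interferon-stimulated response element) or TTGCNNAA (the C/EBP element).
C1ra (chr6:124512371-124512670, plus strand): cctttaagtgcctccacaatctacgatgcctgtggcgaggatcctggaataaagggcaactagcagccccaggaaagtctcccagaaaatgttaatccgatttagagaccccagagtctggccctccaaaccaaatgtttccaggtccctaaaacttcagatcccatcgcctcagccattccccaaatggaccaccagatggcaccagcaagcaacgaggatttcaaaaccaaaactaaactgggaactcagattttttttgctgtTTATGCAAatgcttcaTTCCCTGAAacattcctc
C1s1 (chr6:124542310-124542609, minus strand): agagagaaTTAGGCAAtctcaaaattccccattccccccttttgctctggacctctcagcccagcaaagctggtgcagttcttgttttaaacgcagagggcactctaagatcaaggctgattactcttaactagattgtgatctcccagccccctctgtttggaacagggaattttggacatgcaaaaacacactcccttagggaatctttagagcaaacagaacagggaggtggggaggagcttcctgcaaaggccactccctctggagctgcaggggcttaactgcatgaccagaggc
C3 (chr17:57228087-57228386, minus strand): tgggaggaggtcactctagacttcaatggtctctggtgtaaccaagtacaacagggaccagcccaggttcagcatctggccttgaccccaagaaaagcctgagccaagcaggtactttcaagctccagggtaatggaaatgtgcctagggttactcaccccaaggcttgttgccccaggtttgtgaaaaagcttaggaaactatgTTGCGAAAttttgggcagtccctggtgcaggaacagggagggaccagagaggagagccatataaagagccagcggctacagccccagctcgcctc
C7 (chr15:5063724-5064023, minus strand): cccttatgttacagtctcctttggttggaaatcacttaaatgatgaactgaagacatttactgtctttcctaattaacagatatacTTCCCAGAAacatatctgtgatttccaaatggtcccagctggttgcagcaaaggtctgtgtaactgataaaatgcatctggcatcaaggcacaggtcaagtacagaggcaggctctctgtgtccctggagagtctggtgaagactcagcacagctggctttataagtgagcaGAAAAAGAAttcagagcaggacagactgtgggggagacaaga
C1ra held a GAS match, TTCCCTGAA, and a C/EBP match, both after its RefSeq start, which lies 216 bases from the GENCODE start. C1s1 and C3 each held a C/EBP match, the latter (TTGCGAAA) beginning 45 bases before the start. C7 held a GAS match, TTCCCAGAA, 164 bases before the start and an interferon element core, GAAAAAGAA, 8 bases after it, and C6 held none of the 3. Of 32851 mouse promoters of this length, 8.3% held the GAS letters, 8.56% the interferon element core and 10.8% the C/EBP letters. A match is a run of letters, and binding was not measured.

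The first comparison asked how doxorubicin differed from saline in mice with intact Adam17. All 9 members had lower means after doxorubicin in A17fl/fl hearts, with a median log2 fold change of -0.58 against -0.04 over all 16101 genes. C7 was lowest relative to saline, 75.5% down at a log2 fold change of -2.03 ± 0.28 (SE). C4b was at -1.07 ± 0.32, C3 at -0.58 ± 0.28, Serping1 at -0.43 ± 0.16, C1s1 at -0.38 ± 0.17 and C1ra at -0.31 ± 0.17. Cfb was at -1.75 ± 0.67, C6 at -1.15 ± 0.75 and C1qa at -0.48 ± 0.32. C1ra, C3, C7 and Serping1, 4 of the 9, did not overlap between the groups, where 6.11% of all genes were lower without overlap. Of the 9 members, 5 had an unadjusted p under 0.05 and a lower level (C1s1, C4b, C7, Cfb and Serping1), beside 6.58% of all genes lower and 4.11% higher. The members were chosen with earlier results of these counts in view. Such counts of members, here and in the comparisons below, are therefore descriptions and no test of the list. No gene of the 16101 had an adjusted p under 0.05 by edgeR's quasi-likelihood test (0%), and the members' adjusted p ran from 0.222 (C7) to 0.603 (C1qa).

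Leaving out A17fl/fl + NS replicate 1 left C7 at -2.04, C3 at -0.56, C1s1 at -0.46 and C4b at -0.84 on the log2 scale. C1qa moved to 0.05 and Cfb to -0.09, and the unadjusted p was under 0.05 for C1s1, C4b and C7, beside 5.6% of all genes lower and 4.63% higher. Without A17fl/fl + NS replicate 2 in place of it, C7 (adjusted p = 0.0107) and C4b (adjusted p = 0.0114) passed edgeR's threshold together with 2.38% of all genes. DESeq2 placed C7 under its threshold (adjusted p = 9.28e-08), as it did 0.947% of all genes, and no other member. Over all the alternatives listed with the processing, C7 passed in only 2 and C4b in 1, and no other member passed in any. Beside the members, 17 of 21 interferon-responsive genes had positive log2 fold changes in this comparison, 8 of them with an unadjusted p under 0.05 (median 0.70), all 8 mesothelium markers had negative ones (median -1.09), and the fibroblast markers had 6 of each (median 0.03). The mesothelium sums were 16.5, 150 and 5.83 CPM in A17fl/fl + NS and 43.2, 21.0 and 21.1 CPM in A17fl/fl + DOX. Only replicate 2 of the NS hearts thus lay above the DOX hearts. The interferon-responsive sums were 1140, 557 and 729 CPM in A17fl/fl + NS and 1103, 1617 and 1079 CPM in A17fl/fl + DOX. Without NS replicate 1 these interferon-responsive sums did not overlap between the groups. The part of these lists in the members' levels was not tested.

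The same question was asked in the knockout. In A17α-MHCKO hearts C7 was 38.2% lower after doxorubicin than after saline, a log2 fold change of -0.70 ± 0.28, without overlap of the 3 hearts in each group. The other 8 members lay between -0.14 (C1ra) and 0.21 (C6), and each overlapped. C3 was at 0.20 ± 0.28 and C4b at 0.12 ± 0.32. Leaving out A17α-MHCKO + NS replicate 2, the heart with 511 CPM of C3, put C3 at 0.68. C7 alone of the 9 had an unadjusted p under 0.05, where 2.44% of all genes were lower and 3.97% higher by that rule and 7.79% were lower without overlap. No gene passed an adjusted p of 0.05 (0%), and the members' median was 0.12 against 0.00 over all genes. All 8 mesothelium markers (median -2.42), all 7 atrium markers (median -1.62), all 12 fibroblast markers (median -0.32) and 18 of 21 interferon-responsive genes (median -0.23) had negative log2 fold changes in this comparison, and the part of any of them in the level of C7 was not tested.

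The third comparison set the genotypes side by side after saline. Every member had a lower mean in A17α-MHCKO + NS than in A17fl/fl + NS hearts, with a median log2 fold change of -1.13 against -0.03 over all genes. C7 was 66.2% lower (log2 fold change -1.56 ± 0.28), C4b 63.1% lower (-1.44 ± 0.33), C3 54.3% lower (-1.13 ± 0.28) and C1s1 40.3% lower (-0.74 ± 0.17). These 4 and C1ra (-0.39 ± 0.17) did not overlap between the genotypes, where 5.34% of all genes were lower without overlap. Serping1 was at -0.39 ± 0.16 with overlap, and C1qa (-0.51 ± 0.32), C6 (-1.35 ± 0.75) and Cfb (-2.12 ± 0.67) overlapped as well. The unadjusted p was under 0.05 for 7 members, all but C1qa and C6, beside 6.53% of all genes lower and 3.61% higher. Since the choice of members drew on earlier results of these counts, that number is a description and no test of the list. By edgeR's quasi-likelihood test 0.0186% of all genes (3) had an adjusted p under 0.05, and none was a member (0.118 for C7 to 0.612 for C1qa).

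Without A17fl/fl + NS replicate 1 the log2 fold changes were -1.57 for C7, -1.21 for C4b, -1.11 for C3 and -0.82 for C1s1, and the unadjusted p of these 4 alone was under 0.05, beside 5.65% of all genes lower and 4.58% higher. Cfb moved from -2.12 to -0.45 ± 0.28 and C1qa from -0.51 to 0.03. C3 was at -1.60 without A17α-MHCKO + NS replicate 2 and C1s1 at -0.52 without A17fl/fl + NS replicate 3. Leaving out A17fl/fl + NS replicate 2 brought C1s1, C4b, C7 and Cfb under an adjusted p of 0.05, with 4.09% of all genes, and DESeq2 called C1s1, C3, C4b and C7, with 1.09% of all genes. Over all the alternatives, C1s1, C3, C4b and C7 each passed in only 2 and Cfb in 1, and the remaining members in none. Fibroblast markers, which are expressed by cells that also transcribe C1s1, C3 and C4b, summed to 9846, 5473 and 3998 CPM in A17fl/fl + NS and 4865, 6362 and 5717 CPM in A17α-MHCKO + NS. The sums overlapped between the genotypes. Among the A17fl/fl + NS hearts, C4b, C1ra, Serping1, C1qa, Cfb and C6 were highest in replicate 1, which had the highest fibroblast sum, and C3, C1s1 and C7 in replicate 3, which had the lowest. The sum in replicate 1 came largely from Col1a1, Col1a2 and Col3a1, at 2262, 1335 and 3801 CPM. Of the 12 fibroblast markers, 5 had their highest level of all hearts in replicate 1 and 5 their lowest, so the sum does not rank the hearts by fibroblasts. The atrium markers summed to 3914, 6530 and 8442 CPM in A17α-MHCKO + NS, and all 7 had positive log2 fold changes (median 0.90, and 0.32 with 5 of 7 positive without A17fl/fl + NS replicate 1). The A17fl/fl + NS hearts with high C4b and C6 were the 2 that were nearly without Myl7, Myl4 and Sln. Interferon-responsive genes lay the other way from the members: 18 of 21 had positive log2 fold changes, 11 of them with an unadjusted p under 0.05 (median 0.89), and without that replicate 21 of 21 did, 14 with such a p (median 1.17). The part of fibroblasts, of atrial tissue and of the interferon-responsive genes in the members' genotype difference was not tested.

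After doxorubicin the genotypes lay close together. The members' log2 fold changes ran from -0.35 ± 0.28 (C3) to 0.17 ± 0.32 (C1qa), with a median of -0.22 against 0.01 over all genes. C1s1 (-0.29 ± 0.17) was the only member without overlap, where 7.13% of all genes were lower without overlap. No member had an unadjusted p under 0.05, a rule that 1.19% of all genes met as lower and 1.52% as higher. One gene of all tested had an adjusted p under 0.05 (0.00621%), and every member's adjusted p was 1 by edgeR's quasi-likelihood test.

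**Figure D3:**
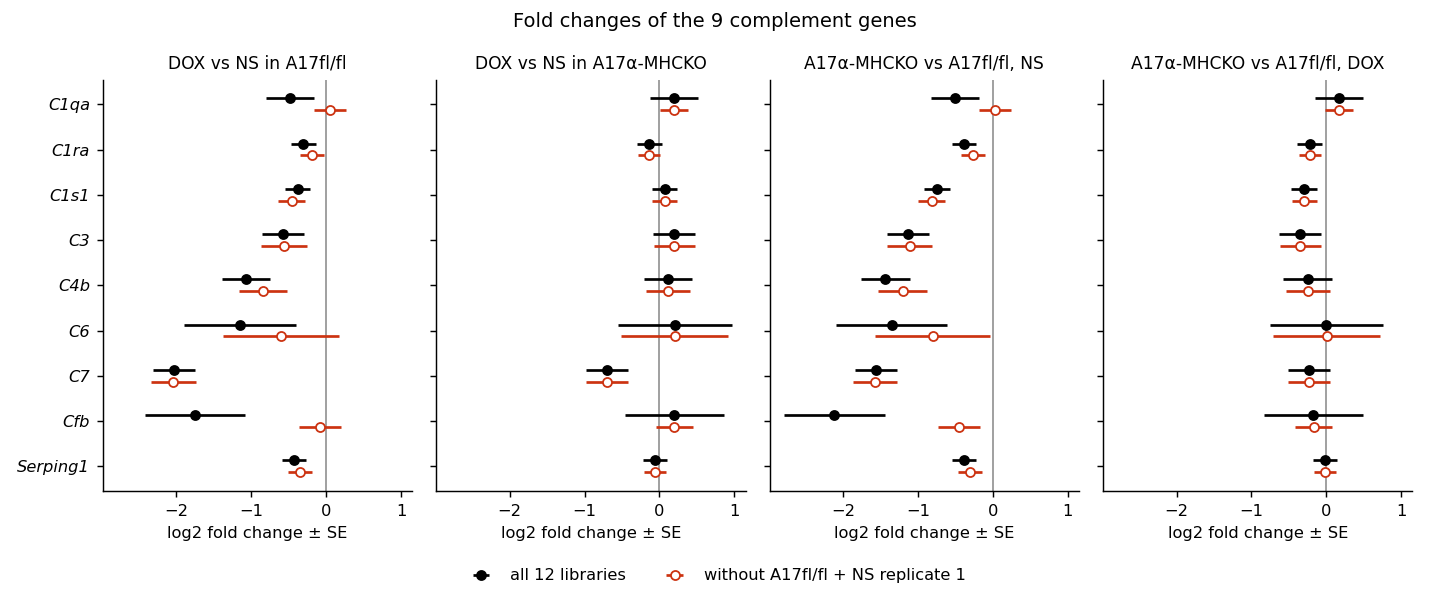
Log2 fold change ± SE (x axis) of the 9 complement genes in 4 comparisons, from all 12 libraries (filled) and without A17fl/fl + NS replicate 1 (open). C7 stays at -2.04 and -1.57 in the leftmost panel and the NS genotype panel without that heart, whereas Cfb moves from -1.75 to -0.09 and from -2.12 to -0.45. The leftmost panel and the NS genotype panel have the same A17fl/fl + NS hearts as their base.

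The doxorubicin difference was compared between the genotypes as an interaction, the log2 fold change in A17α-MHCKO minus that in A17fl/fl. It was positive for all 9 members, from 0.17 (C1ra) to 1.95 (Cfb), with a median of 0.78 against 0.06 over all genes. The same A17fl/fl + NS hearts enter the doxorubicin difference in A17fl/fl, the genotype difference after saline and this interaction. These are therefore not separate results. C7 was at 1.34 ± 0.39 with and 1.34 without A17fl/fl + NS replicate 1, C4b at 1.19 ± 0.46 and 0.96, and Cfb at 1.95 ± 0.94 and 0.29. C7 and C4b had an unadjusted p under 0.05, beside 3.5% of all genes higher and 2.49% lower, and C7 alone did without that heart, beside 3.82% higher and 3.3% lower. No gene reached an adjusted p of 0.05 by edgeR's quasi-likelihood test (0%; members 0.828 to 0.893). C4b alone of the members did so without A17fl/fl + NS replicate 2 (adjusted p = 0.044), with 0.493% of all genes.

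Over both genotypes, C7 was 66.1% lower in the 6 DOX than in the 6 NS hearts (log2 fold change -1.36 ± 0.20), without overlap, as were 0.298% of all genes. It was the only member with an unadjusted p under 0.05, where 5.2% of all genes were lower and 5.47% higher. The other members lay between -0.14 (C1qa) and -0.78 (Cfb), and without A17fl/fl + NS replicate 1 both of these were positive (C1qa 0.12, Cfb 0.06) and C7 was at -1.37, again the only member with such a p, beside 7.45% of all genes lower and 7.57% higher. The adjusted p of C7 was 0.118 by edgeR's quasi-likelihood test, which called no gene (0%), 0.0538 without A17fl/fl + NS replicate 1, 0.015 without replicate 2 of that group (0.444% of all genes called) and 6.57e-07 by DESeq2 (1.15% called). Over both treatments, C1s1 was 30.8% lower in the 6 A17α-MHCKO than in the 6 A17fl/fl hearts (-0.52 ± 0.12), without overlap, as were 0.205% of all genes. C3 (-0.74 ± 0.20), C4b (-0.84 ± 0.23), C7 (-0.90 ± 0.20), Cfb (-1.15 ± 0.47) and C1ra (-0.30 ± 0.12) also had an unadjusted p under 0.05, 6 members in all, beside 3.89% of all genes lower and 2.76% higher. C1s1, C3, C4b and C7 did so without A17fl/fl + NS replicate 1, beside 4.96% lower and 5.36% higher, and Cfb moved to -0.31 and C1ra to -0.24. An adjusted p under 0.05 was reached by 0.0248% of all genes (4) and no member. DESeq2 called C1s1 and C7 (0.194% of all genes), and leaving out A17fl/fl + NS replicate 2 brought C4b under the threshold (0.28% of all genes). The remaining alternatives brought no member under the threshold in either comparison.

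Of the 49 complement genes that are not members, 32 passed the filter and were tested. None had an adjusted p under 0.05 in any of the 7 contrasts by edgeR's quasi-likelihood test or by DESeq2. For doxorubicin in A17fl/fl hearts, 0 were higher and 4 lower at an unadjusted p under 0.05, beside 4.11% and 6.58% of all genes, and their median was -0.22, against -0.04 over all genes. The 4 were Clu (-0.93), Fcna (ficolin A, -1.51), Cfp (properdin, -1.25) and Itgam (a chain of complement receptor 3, -1.60), and Clu alone had such a p without A17fl/fl + NS replicate 1 (-0.49). The other 3 rested on that library: without it Fcna was at -0.24, and Itgam (0.42) and Cfp (0.11) turned positive. For genotype after saline 2 were higher, among them Vtn (vitronectin, 0.75), and 7 lower, beside 3.61% and 6.53% of all genes, with a median of -0.14. Without that library 1 was higher (Vtn, 0.43) and 2 lower (Clu, -0.44, and Itgam, which moved from -2.46 to -0.44), beside 4.58% and 5.65%. In A17α-MHCKO hearts 0 were higher and 3 lower after doxorubicin, beside 3.97% and 2.44% of all genes, and the median was 0.11. Among the 3 were C2 (-1.23) and Csmd1 (-1.72), which had only 3 to 34 counts per library. All hearts share the fit's estimate of spread, so A17fl/fl + NS replicate 1 also enters here. Without that library Itgam (0.64) was higher at such a p, beside 6.59% of all genes higher. After doxorubicin 1 gene differed by genotype at that p (C1rb, -0.52, beside 1.19% of all genes lower), with a median of -0.12. As interaction 2 were higher (Fcna and Itgam) and 1 lower (Csmd1), beside 3.5% and 2.49% of all genes, and without A17fl/fl + NS replicate 1 none of the 32 had such a p. Over both genotypes 1 was higher after doxorubicin (C5ar1, a C5a receptor, 0.29) and 3 lower (C2, Clu and Csmd1), beside 5.47% and 5.2% of all genes. Without A17fl/fl + NS replicate 1, Itgam moved from -0.48 to 0.53 and had such a p. Clu (-0.29) lost it and C5ar1, C2 and Csmd1 kept it, beside 7.57% of all genes higher and 7.45% lower. Over both treatments 7 were lower in the knockout, beside 3.89% of all genes, and 2 without that library (C1rb and Itgam), beside 4.96%.

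Regulators and convertase genes outside the members had other patterns (the plot of 6 other complement genes). Vtn, a plasma and matrix protein that holds back the terminal complex, was 12.1, 26.4 and 32.5 CPM in A17fl/fl + NS and 41.3, 45.3 and 32.8 CPM in A17α-MHCKO + NS, the opposite order to C3. It was 35.1, 34.7 and 34.7 CPM in A17fl/fl + DOX and 27.4, 40.2 and 35.3 CPM in A17α-MHCKO + DOX, so that doxorubicin and saline overlapped in A17α-MHCKO hearts. C2, the partner of C4 in the convertase, was 3.00, 12.2 and 2.38 CPM in A17fl/fl + NS, highest in the replicate in which C4b and C6 were lowest. Cfd (factor D, the protease that cleaves factor B) was 1.62, 53.1 and 0.439 CPM in the same hearts and 9.05 to 60.1 CPM in the other 9. Replicates 1 and 3 are the hearts nearly without Myl7, Myl4 and Sln, and replicate 2 has the high mesothelium markers. The part of either in these levels was not tested. Of the membrane regulators, Cd59a was 28.0 to 38.0 CPM, Cr1l, the mouse Crry gene, 39.3 to 57.0 CPM, Cd55 9.98 to 20.7 CPM and Cd46 0.346 to 3.21 CPM over the 12 hearts. C3ar1, the C3a receptor, was 41.3 CPM in the library with high macrophage markers and 7.36 to 17.5 CPM in the others.

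**Figure D4:**
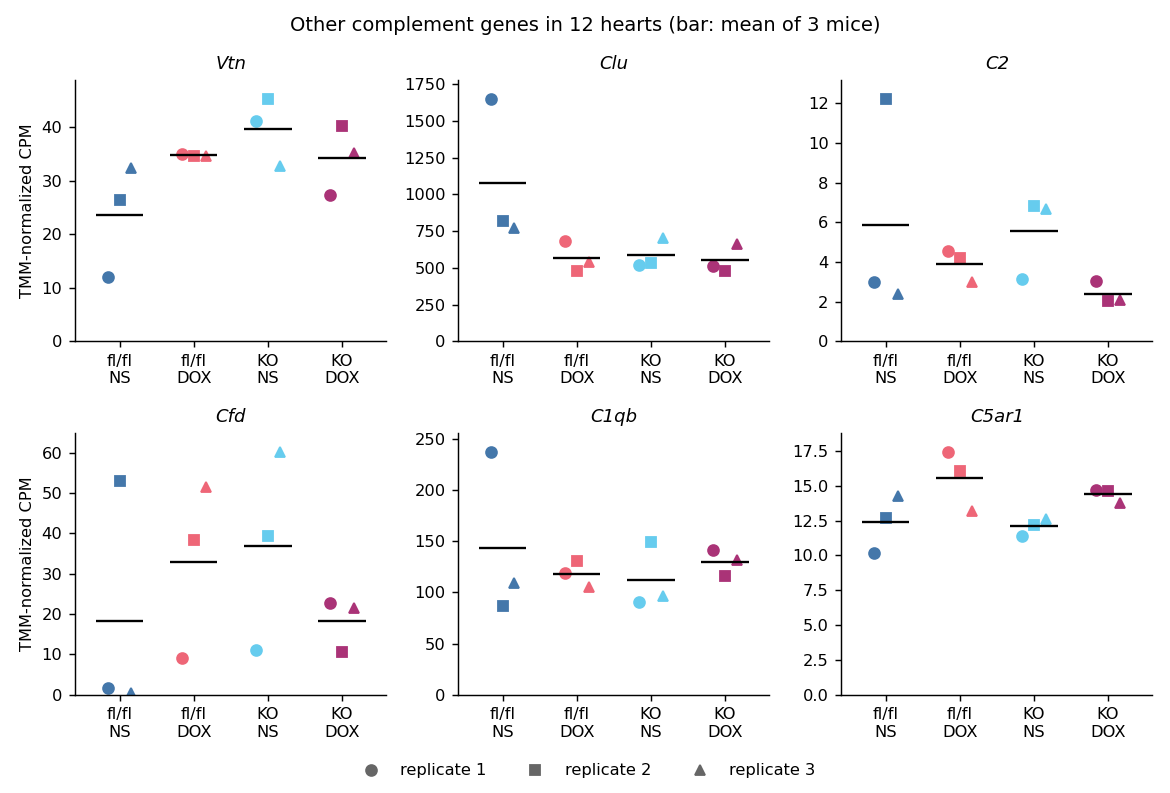
TMM-normalized CPM (y axis, from 0) of 6 complement genes that are not members in 12 hearts, by group, with a symbol per replicate and a bar at the mean of 3 mice. Vtn is 12.1 to 32.5 CPM in A17fl/fl + NS and 32.8 to 45.3 CPM in A17α-MHCKO + NS, C2 and Cfd are high in A17fl/fl + NS replicate 2, and C1qb and Clu in replicate 1.

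The 9 members were related across the 12 hearts as a description only, since the hearts share groups and replicate 1 of A17fl/fl + NS is high for several. Pearson's r of log2 CPM ran from 0.244 (C1qa and C7) to 0.916 (Serping1 and C1ra) over the 12 hearts. Without that replicate (11 hearts), C1qa and C7 were at -0.305 and Serping1 and C1ra at 0.863. The genes outside the complement list whose log2 CPM followed the mean of the 9 standardised members most closely over the 12 hearts were Vrk3 (0.953), Tnfrsf26 (0.949), Gm7887 (0.948), Porcn (0.936) and Man2b2 (0.934). Over the 11 hearts they were Nfkbiz (0.932), Gm7887 (0.908), Tnfrsf26 (0.904), mt-Td (0.895) and Porcn (0.892).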

How the data were processed

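Total RNA of 12 mouse hearts was sequenced from stranded paired-end mRNA libraries. The authors deposited fragment counts per gene from StringTie after HISAT2 alignment, and FPKM values beside the counts. The submitters' processing notes name CASAVA 1.8, HISAT2, SAMtools 1.3.1, edgeR and GRCm39; the strand setting and annotation release are not given in the sources used here. Positions and promoters came from GRCm38 annotation, matched by gene ID or symbol, not by coordinates. Groups followed genotype and treatment labels.

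Counts of all 53465 genes were filtered with filterByExpr (16101 kept), TMM-scaled and fitted with edgeR 4.0.16 (R 4.3.3) by the quasi-likelihood test, 4 group means in one fit, two-sided, with Benjamini-Hochberg adjustment over all genes tested. log2 CPM used a prior count of 2. The fit was tested on simulated counts. No replicate was a repeat of another (chi-square per degree of freedom at least 11.1). Near copies were aligned with blastn 2.17.0. The p-values rest on the spread between mice within groups of 3, estimated over all 4 groups together and moderated over genes. A heart outside a comparison therefore enters its p-value. The SE of Cfb for doxorubicin in A17α-MHCKO was 0.66 with and 0.25 without A17fl/fl + NS replicate 1. Alternatives were DESeq2 1.42.0, RLE and upper-quartile scaling, other filters, pairs of groups alone, a replicate block and each library left out. The members and gene lists were chosen with earlier results of these data known. Named were the 9 members, their subunits, near copies and pathway partners, up to 2 other complement genes per direction and contrast with the smallest p, and the 5 genes closest in pattern; Cfp and C2 come under pathway partners. The depth was 15950717 to 21725076 counts per library. The values of 1 listed gene are not reported here.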

Additional observations from a re-analysis of the deposited data

How the results depend on the processing

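Of the 1163 values recomputed for the members under the alternatives, 1151 moved by less than the spread between replicates (1 SD) and 12 by more, all 12 on leaving out 1 heart: C1qa and Cfb without A17fl/fl + NS replicate 1, C1s1 without replicate 3 of that group and C3 without A17α-MHCKO + NS replicate 2. This count is a weak check, since a contrast hardly shifts when a heart outside it is left out. The SD also included A17fl/fl + NS replicate 1. Without that heart C6 went from -1.15 to -0.61 for doxorubicin in A17fl/fl and was counted as moving by less. The number of other complement genes called for doxorubicin in A17fl/fl was 0 to 1 over the hearts left out, and for genotype after saline 0 to 3. The highest counts came without A17fl/fl + NS replicate 2, when Cfd (both comparisons), Fcna and Itgam were called; in the remaining contrasts and alternatives the count stayed 0. Of 570 values of the other complement genes that had an unadjusted p under 0.05 in a contrast, recomputed under the alternatives, 414 kept their side of that p, 154 lost it and 2 changed direction, Itgam (0.42) and Cfp (0.11) for doxorubicin in A17fl/fl without A17fl/fl + NS replicate 1. With each heart left out in turn, Itgam ran from -2.08 to 0.42 and Cfp from -1.65 to 0.11 there. Same-numbered hearts correlated between -0.104 and 0.219 in their deviations from group means (3 of 18 pairs over 0.1), so the numbers do not pair the mice, and with the replicate block 0 other complement genes were called in each contrast. C6, with 7 to 99 counts per library, is the member that depth limits most.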
